A study of Homo sapiens with 12 samples.

Results

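The short arm of chromosome 9, 9p, was described in cultures of 786 and 769, 2 lines of clear cell renal carcinoma, by the tags that a methylation-sensitive enzyme and its insensitive partner left at CCGG sites. All CCGG sites listed on chromosome 9 below position 47000000 of hg19 were taken, which gave 9734 of the 996035 sites listed on chromosomes 1 to 22 and X. The CDKN2A and CDKN2B genes lie between 21960000 and 22015000, where 42 of these sites were listed. The choice used position alone and no measured value. The running site numbers in the files show that the arm holds at least 27431 reference CCGG sites and the CDKN2A and CDKN2B interval 89, so most reference sites had no tag in any library.

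HELP-tagging, the assay used, cuts genomic DNA at CCGG, ligates adapters to the cut ends and counts short tags beside each site. Each line gave 3 DNA samples, of which 2 were treated with ascorbic acid (AA, vitamin C, a cofactor of the TET enzymes) and 1 was an untreated control, and each DNA sample gave 1 HpaII and 1 MspI library. The AA samples carry the numbers 1 and 2, whose meaning is not stated, so SDs and p-values measure the spread between these samples, which may be technical. MspI libraries held 3785890 to 12442031 tags in all and 25690 to 80152 on 9p, and HpaII libraries held 189704 to 11054037 tags in all and 958 to 66513 on 9p. The HpaII library of the 786 control was the shallowest, with tags at 333 sites of 9p, and results that use it are limited by it. The HpaII library of the 769 control held 5734607 tags in all, but at only 979 sites of 9p. AA replicate 1 of 769 had HpaII tags at 2567 sites of 9p from 6922795 tags, and AA replicate 2 at 1342 from 3111094. Whether a lack of HpaII tags in the 769 control came from modification or from this low number of tagged sites was not tested.

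CDKN2A encodes p16, which holds the cyclin-dependent kinases CDK4 and CDK6 in check, and from another start the unrelated protein p14ARF, which stabilises p53. CDKN2B beside it encodes p15, a close relative of p16, and MTAP next to them encodes an enzyme of methionine salvage that tumours often lose together with CDKN2A. The locus is inactivated in many cancers, renal carcinoma among them, by deletion or by methylation of its promoters. MspI cuts CCGG whether or not its inner cytosine is methylated, so MspI tags follow the amount of DNA, while HpaII cuts only the unmodified site, so HpaII tags relative to MspI tags read the lack of modification.

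The promoters on which the following results turn are printed here 5′ to 3′ on the strand of the gene, from 250 bases before to 50 after the start, as RefSeq gives them for GRCh38.p14. Capitals mark CCGG, the only letters this assay can read, which 63.1% of all 35116 promoters in that table and 61.0% of those on 9p hold at least once. The p16 start of CDKN2A (chr9:21974808-21975107, minus strand), its p14ARF start (chr9:21995275-21995574, minus), CDKN2B-AS1, an antisense RNA (chr9:21994541-21994840, plus), and CDKN2B (chr9:22009256-22009555, minus) are given for the stretch without tags in 786. One promoter each of NFIB (chr9:14322338-14322637, minus), KANK1 (chr9:470045-470344, plus) and IGFBPL1 (chr9:38424405-38424704, minus) is given for the differences described with them.
CDKN2A p16: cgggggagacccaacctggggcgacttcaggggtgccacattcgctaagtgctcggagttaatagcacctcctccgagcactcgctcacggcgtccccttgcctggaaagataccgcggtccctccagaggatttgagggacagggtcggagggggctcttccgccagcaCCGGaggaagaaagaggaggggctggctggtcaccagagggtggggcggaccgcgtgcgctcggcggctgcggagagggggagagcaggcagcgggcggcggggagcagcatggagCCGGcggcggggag
CDKN2A p14ARF: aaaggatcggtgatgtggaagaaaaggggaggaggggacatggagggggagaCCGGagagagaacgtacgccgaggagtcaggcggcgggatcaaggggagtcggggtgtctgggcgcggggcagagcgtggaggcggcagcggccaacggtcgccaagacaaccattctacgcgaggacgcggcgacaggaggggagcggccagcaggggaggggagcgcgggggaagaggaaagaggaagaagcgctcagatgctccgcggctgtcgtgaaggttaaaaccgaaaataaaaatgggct
CDKN2B-AS1: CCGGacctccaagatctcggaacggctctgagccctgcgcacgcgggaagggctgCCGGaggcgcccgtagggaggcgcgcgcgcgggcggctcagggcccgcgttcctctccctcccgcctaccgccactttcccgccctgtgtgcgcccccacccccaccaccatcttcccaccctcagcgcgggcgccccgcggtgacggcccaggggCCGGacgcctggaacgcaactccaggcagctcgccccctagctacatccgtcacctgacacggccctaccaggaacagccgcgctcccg
CDKN2B: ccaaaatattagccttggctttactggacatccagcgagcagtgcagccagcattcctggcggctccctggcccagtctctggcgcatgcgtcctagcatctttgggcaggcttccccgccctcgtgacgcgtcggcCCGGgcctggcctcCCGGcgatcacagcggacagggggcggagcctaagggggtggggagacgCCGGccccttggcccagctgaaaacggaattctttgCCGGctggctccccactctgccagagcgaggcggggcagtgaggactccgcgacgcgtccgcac
NFIB: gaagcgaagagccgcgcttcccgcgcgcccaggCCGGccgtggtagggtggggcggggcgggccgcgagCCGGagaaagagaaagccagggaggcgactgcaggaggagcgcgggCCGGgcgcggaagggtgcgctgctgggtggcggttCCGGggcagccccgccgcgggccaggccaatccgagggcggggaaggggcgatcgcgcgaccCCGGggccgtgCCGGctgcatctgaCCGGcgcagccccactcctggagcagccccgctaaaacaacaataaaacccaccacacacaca
KANK1: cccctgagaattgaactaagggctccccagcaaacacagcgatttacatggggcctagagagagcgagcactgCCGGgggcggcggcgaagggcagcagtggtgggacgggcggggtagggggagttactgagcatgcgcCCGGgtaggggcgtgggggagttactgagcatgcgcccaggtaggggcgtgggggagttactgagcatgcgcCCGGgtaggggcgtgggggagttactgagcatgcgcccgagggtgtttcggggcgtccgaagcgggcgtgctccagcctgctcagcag
IGFBPL1: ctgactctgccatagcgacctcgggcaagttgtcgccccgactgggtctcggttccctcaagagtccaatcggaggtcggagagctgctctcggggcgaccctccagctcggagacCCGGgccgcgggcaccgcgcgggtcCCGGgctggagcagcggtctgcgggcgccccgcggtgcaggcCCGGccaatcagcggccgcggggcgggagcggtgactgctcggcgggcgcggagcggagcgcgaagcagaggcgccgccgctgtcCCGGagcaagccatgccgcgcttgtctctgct

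Promoters were found among the hg19 sites by the spacing of their CCGG letters, without converting coordinates. Of 439 RefSeq promoters on 9p, 194 held at least 2 CCGG and 159, of 138 genes, could be placed. CDKN2B, CDKN2B-AS1 and MTAP were placed, with their CCGG sites from 22009317, 21994597 and 21802505 (hg19). Neither start of CDKN2A was placed, since a placing needs at least 2 matching listed sites. The p14ARF promoter has 1 CCGG, and the 2 CCGG of the p16 promoter did not match 2 listed sites between its placed neighbours. In the order of the RefSeq table the p14ARF start lies between the placed promoters of CDKN2B-AS1 and CDKN2B, and the p16 start between those of MTAP and CDKN2B-AS1.

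The question at the CDKN2A locus was whether either line had lost DNA there. In 786 no library of either enzyme had a uniquely placed tag between the sites at 21971249 and 22105958, a gap of 134708 bases with 92 reference CCGG sites. In 769 the same window held tags at 25 uniquely placed sites, with 132 and 133 MspI tags in AA replicates 1 and 2 and 111 in the control. HpaII tags in that window of 769 numbered 456 and 74 in the AA replicates and 352 in the control. The edges of the window were the nearest uniquely placed sites with an MspI tag in 786. The 0 MspI tags of 786 between them thus follow from that choice. HpaII tags did not set the edges, and the lines did not overlap in them, with 0 in each HpaII library of 786. A count of 0 allows up to 3 tags in a library.

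The tags of 769 ended at 22009402, and no site from there to 22105958 was listed in any library, so that stretch does not tell the lines apart. The site at 22105958 had 1 MspI tag in the 786 control, so the far edge rests on 1 tag. Within the gap, 21 consecutive sites with MspI tags in 769, from 21990049 to 22009353 (19305 bases), had none in 786. Of 98369 such runs of sites tagged in 769 and not in 786 over the genome, 3 were at least as long (0.00305%), and on 9p 1 of 910 (0.11%). Of the uniquely placed sites with an MspI tag in either line, 14.5% had none in 786. The placed promoters of CDKN2B and CDKN2B-AS1 lie in this gap. Tags shared with other places in the genome were few in the window, with 1.11 in AA replicate 2 of 786 and 8 in AA replicate 2 of 769, and none in any other library. In bulk DNA, fewer cells with the locus and fewer copies per cell cannot be told apart.

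The stretch did not pass the test of whole bins. The bin from 22000001 to 22100000 averaged 0.055 ± 0.0952 CPM of MspI in 786 and 4.9 ± 3.15 CPM in 769 (SD, n = 3 each), where CPM is tags per 1000000 tags of a library, a log2 fold change of -6.08 with an adjusted p of 0.18 by edgeR's quasi-likelihood test. The bin from 21900001 to 22000000, which holds both sides of the edge, averaged 17.3 ± 4.77 CPM in 786 and 30.4 ± 17.1 in 769, with a log2 fold change of -0.79 and an adjusted p of 0.49 by the same edgeR test.

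On the other side of the edge the order of the lines was reversed. Between 21965669 and 21990049, a gap of 24379 bases with 36 reference sites, no library of 769 had a uniquely placed tag. This window was bounded by the nearest sites with an MspI tag in 769, so its lack of MspI tags in 769 follows from that choice. In that window 786 held 22 and 68 MspI tags in AA replicates 1 and 2 and 66 in the control, and 0, 6 and 0 HpaII tags in the same samples. The sites tagged in 786 formed a run of 7, from 21965991 to 21971249 (5259 bases). Runs at least as long in which 769 had no tag were more common, with 276 of 135935 over the genome (0.203%) and 6 of 1112 on 9p (0.54%). Of the uniquely placed sites with an MspI tag in either line, 23.8% had none in 769. Between 21971249 and 21990049, where the table order allows the p16 start to lie, 21 reference sites had no unique MspI tag in any of the 6 MspI libraries. Stretches that long were found 6562 times among 326108 over the genome and 162 times among 3054 on 9p, so the stretch is not rare.

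**Figure D1:**
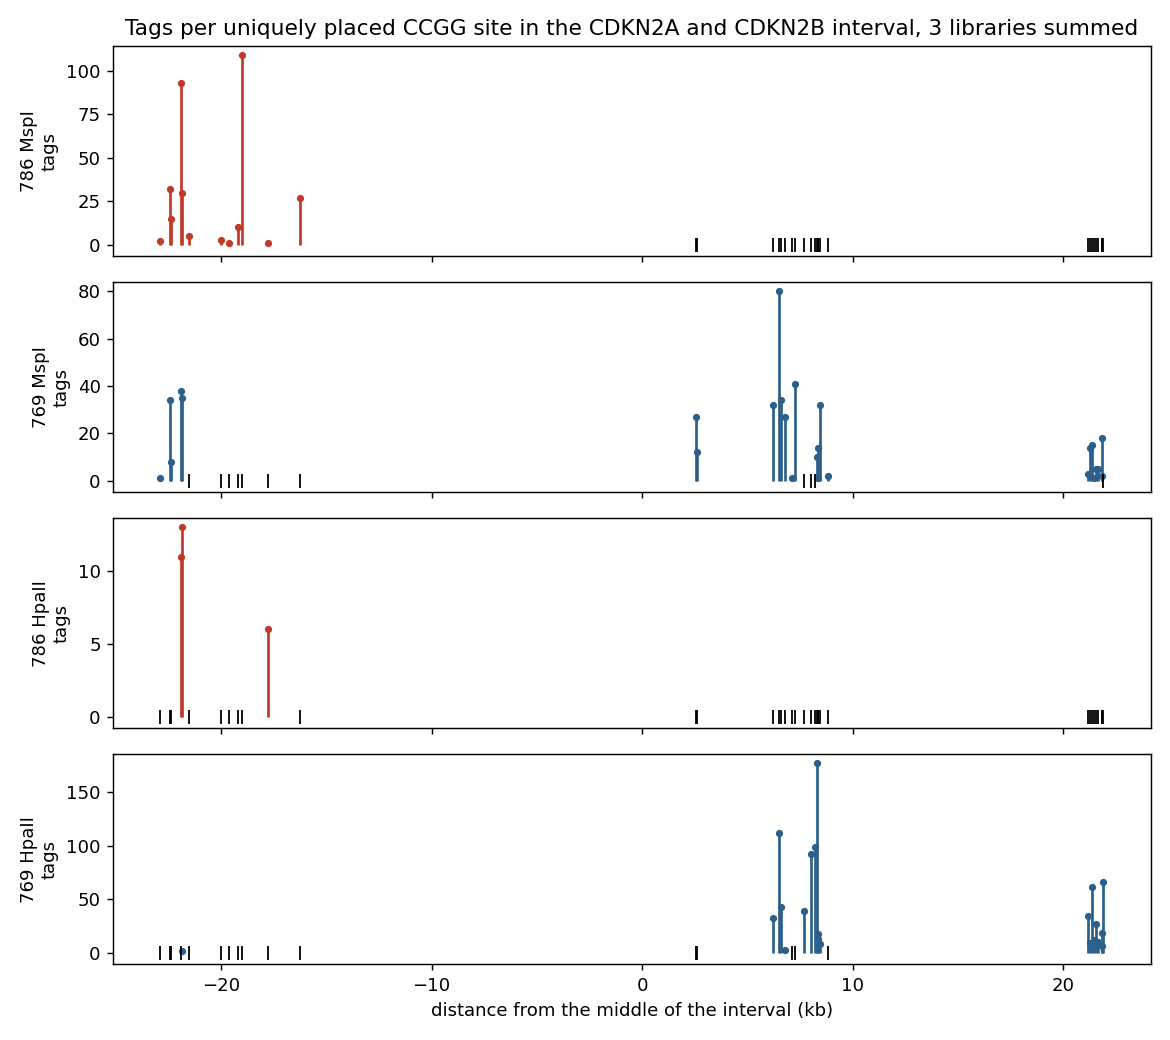
Tags at each uniquely placed CCGG site (y axis, sum of the 3 libraries of a line and enzyme) by distance from the middle of the CDKN2A and CDKN2B interval in kb (x axis), with MspI in the upper pair of panels and HpaII in the lower pair, 786 above 769 in each. Short black marks are listed sites with 0 tags, and 786 has tags at the left end alone while 769 has them on both sides of a middle stretch.

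The interval as a whole hides this pattern. It held 108 and 125 MspI tags in the AA replicates of 786 and 97 in its control, and 154 and 183 in those of 769 and 171 in its control. Per reference site and relative to the rest of 9p this was 0.817 ± 0.21 in 786 and 1.39 ± 0.776 in 769 (SD, n = 3 each), a difference smaller than the spread in 769. HpaII tags in the interval numbered 6 and 24 in the AA replicates of 786 and 0 in its control, against 458 and 74 in the AA replicates of 769 and 352 in its control. All uniquely placed tags of 786 in the interval lay at sites up to 21971249.

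At the CDKN2B promoter 786 had 0 tags in all 6 libraries. In 769 the same sites had 18 and 2 MspI tags in the AA replicates and 0 in the control, and 9 and 26 HpaII tags in the AA replicates and 56 in the control. All 3 samples of 769 thus had HpaII tags there, with the most in the control. The CDKN2B-AS1 promoter of 769 had 11 and 30 MspI tags in the AA replicates and 1 in the control, and 0 HpaII tags in each sample. MTAP, left of the stretch, had HpaII tags in 786, 71 and 23 in the AA replicates and 0 in the control, against 0, 0 and 16 in 769. Its MspI tags were too few for a ratio, with 0, 2 and 2 in the AA replicates and control of 786 and 0 in each sample of 769.

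Over the whole arm 786 held less MspI signal than 769. The share of MspI tags on 9p was 0.668% and 0.642% in the AA replicates and 0.615% in the control of 786, against 0.719%, 0.740% and 0.701% in the same order in 769. The means were 0.642% ± 0.0267 in 786 and 0.720% ± 0.0194 in 769 (SD, n = 3 each), a fold of 0.891, and the lines did not overlap. The exact two-sided permutation test of the line labels gave p = 0.1, the smallest that 20 arrangements allow. A share is relative to the rest of the genome, so it does not give copies per cell.

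Bins of 1 Mb showed where the arm differed. Of 47 bins tested on 9p, 10 were called at an adjusted p under 0.05 by edgeR, 4 higher and 6 lower in 786. Over the genome 731 of 2873 bins were called (25.4%), so the share on 9p, 21.3%, was close to the background. The median log2 fold change was -0.13 on 9p and 0.007 over all bins tested.

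The rises in 786 lay side by side, just left of the CDKN2A locus. The bin from 17000001 to 18000000 had 121, 101 and 106 CPM of MspI in AA replicates 1 and 2 and the control of 786, and 61.5, 43.8 and 43.3 in those of 769. Its log2 fold change was 1.13 ± 0.22 (SE), with an adjusted p of 0.0016 by edgeR, and it passed in 14 of 14 alternatives. The bin from 19000001 to 20000000 had a log2 fold change of 1.05 ± 0.24 (edgeR adjusted p = 0.0044), and the bin from 20000001 to 21000000 one of 0.93 ± 0.25 (edgeR adjusted p = 0.012). Both were above 769 in every sample of 786, and both missed the threshold without either line's control. The bin from 18000001 to 19000000 was called too (1.05 ± 0.32, edgeR adjusted p = 0.025), although its samples overlapped between the lines. The MLLT3 and FOCAD promoters, a subunit of a transcription elongation complex and a focal adhesion protein, were placed in the bin from 20000001.

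The next bins to the right were not called. From 21000001 the log2 fold change was 0.18 ± 0.24 (edgeR adjusted p = 0.64), and from 22000001 it was 1.03 ± 0.39 (adjusted p = 0.07), although that bin holds part of the stretch without tags in 786. From 23000001 it was -0.13 ± 0.30 and from 24000001 -0.25 ± 0.41, with edgeR adjusted p of 0.81 and 0.71. Summed over segments chosen after these values were seen, 17 to 21 Mb held 389 ± 21.5 CPM of MspI in 786 and 189 ± 43.4 in 769, a fold of 2.06. From 21 to 23 Mb without the stretches untagged in a line it was 147 ± 4.87 in 786 and 88.1 ± 18.9 in 769, a fold of 1.67 (SD, n = 3 each). The longer of these stretches was chosen for its lack of MspI tags in 786, so leaving it out raises the fold. With the stretches kept, the bin from 21000001 held 90.2 ± 13.7 CPM in 786 and 78.7 ± 26 in 769. The bin from 22000001 then held 64.3 ± 8.38 in 786 and 35.6 ± 19.9 in 769.

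Among the bins lower in 786, 14000001 to 15000000 had the largest change, -0.95 ± 0.16 (edgeR adjusted p = 0.00049). It held 115, 91.2 and 99.7 CPM of MspI in the AA replicates and control of 786, and 187, 208 and 192 in those of 769. Without the NFIB bin of 100 kb, which is described with the 100 kb bins, the rest of it held 85.3, 72.2 and 69.0 CPM in the AA replicates and control of 786, and 80.8, 58.2 and 87.3 in those of 769. The means were 75.5 ± 8.66 CPM in 786 and 75.4 ± 15.3 in 769 (SD, n = 3 each), so the lower level of the 1 Mb bin in 786 lay in the NFIB bin. The others were 33000001 to 34000000 (-0.60, edgeR adjusted p = 0.00089), 34000001 to 35000000 (-0.49, 0.0013), 38000001 to 39000000 (-0.47, 0.012), 5000001 to 6000000 (-0.55, 0.023) and 37000001 to 38000000 (-0.32, 0.024). The bin from 5000001 missed the threshold without either control and without AA replicate 1 of either line, and the bin from 38000001 missed it without the control of 786 (0.071) or of 769 (0.064). Bins from 33 to 39 Mb together held 2242 ± 77.6 CPM in 786 and 2899 ± 23.9 in 769, a fold of 0.773, in a segment chosen after the values were seen. This segment is dense in CCGG, and sites with 8 to 15 CCGG in 1 kb took 22.8%, 22.8% and 23.2% of all MspI tags in the AA replicates and control of 786, against 24.5%, 26.3% and 24.4% in 769. The part of that shift in the result was not tested.

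**Figure D2:**
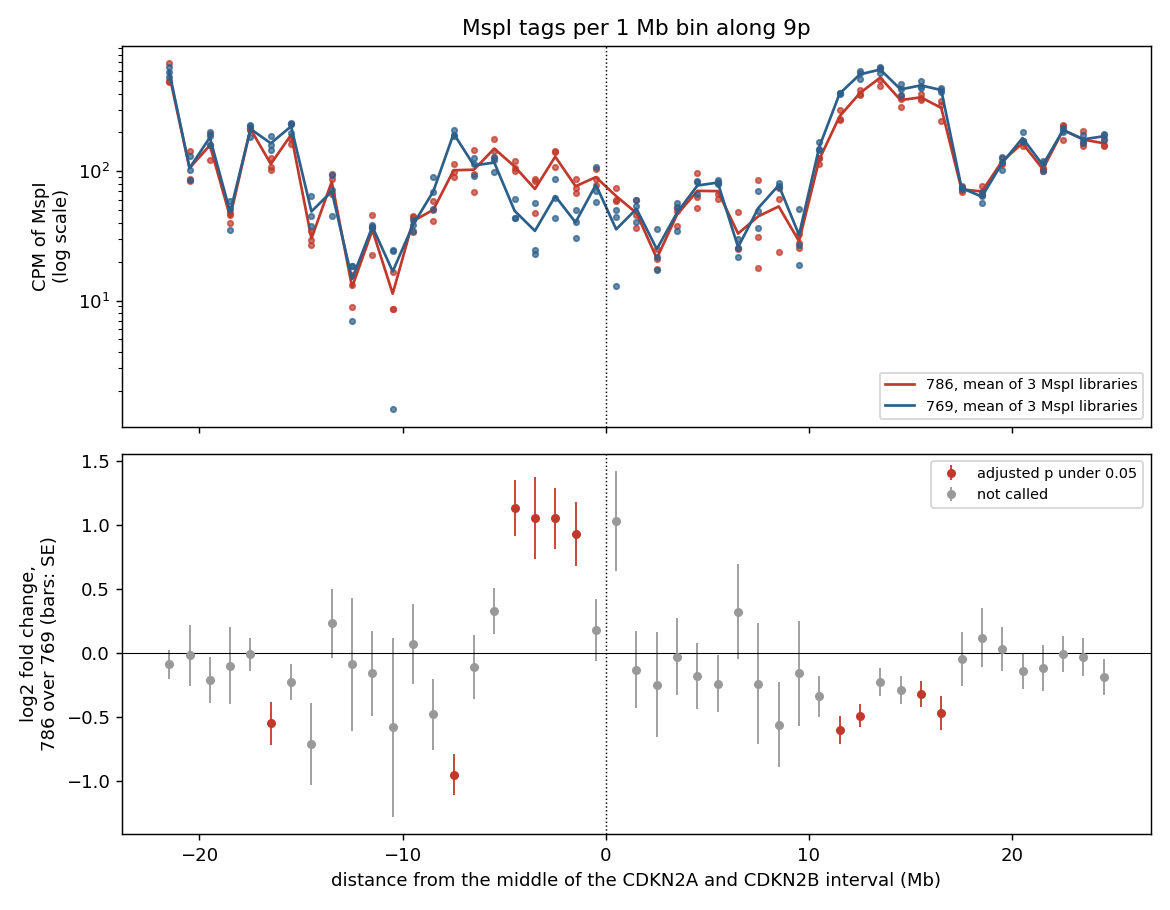
CPM of MspI in each 1 Mb bin of 9p (upper panel, log scale, points are libraries and lines the means of 3) and log2 fold change of 786 over 769 with its SE (lower panel), by distance from the middle of the CDKN2A and CDKN2B interval in Mb. The 4 bins called higher in 786 lie side by side just left of the interval, and 4 of the 6 called lower lie to its right.

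In bins of 100 kb, 1 of 365 bins tested on 9p was called, lower in 786, against 417 of 24248 over the genome (1.72%, and 0.862% for lower alone). It runs from 14300001 to 14400000 and holds the 4 placed promoters of NFIB, of which 2 overlap, a transcription factor of the nuclear factor I family that works in lung and brain development. CPM of MspI were 29.9, 19.0 and 30.8 in AA replicates 1 and 2 and the control of 786, and 106, 150 and 105 in those of 769. The log2 fold change was -2.20 ± 0.27 (SE) with an adjusted p of 0.00027 by edgeR, and the bin passed in 14 of 14 alternatives. Its neighbours hold few CCGG sites, with 1.65 ± 1.57 CPM in 786 and 2.07 ± 1.57 in 769 on the left and 4.26 ± 4.34 in 786 and 0.866 ± 0.757 in 769 on the right (SD, n = 3 each). Neither neighbour was called (edgeR adjusted p of 0.97 and 0.76).

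HpaII relative to MspI was above the genome mean in this bin in both lines, at 2.85 and 3.88 in the AA replicates and 4.26 in the control of 786, and 2.06, 2.06 and 2.55 in 769. At the NFIB promoter printed above, HpaII tags numbered 93 and 58 in the AA replicates and 0 in the control of 786, and 168, 152 and 104 in 769. MspI tags there numbered 0, 11 and 25 in 786 and 44, 49 and 58 in 769. The log2 difference of the lines in HpaII relative to MspI over the bin was 0.62 and did not pass (edgeR adjusted p = 0.49).

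The bin with the next smallest p, from 16600001 to 16700000, had 49, 37 and 36 MspI tags in the AA replicates and control of 786 and 0 in each sample of 769 (edgeR adjusted p = 0.069). It had 7 listed sites, and 1 site held 100%, 54.1% and 96.9% of the MspI tags of 786 in the same order. The bin from 38000001 to 38100000 followed, with a log2 fold change of -0.83 and an adjusted p of 0.072 by edgeR.

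**Figure D3:**
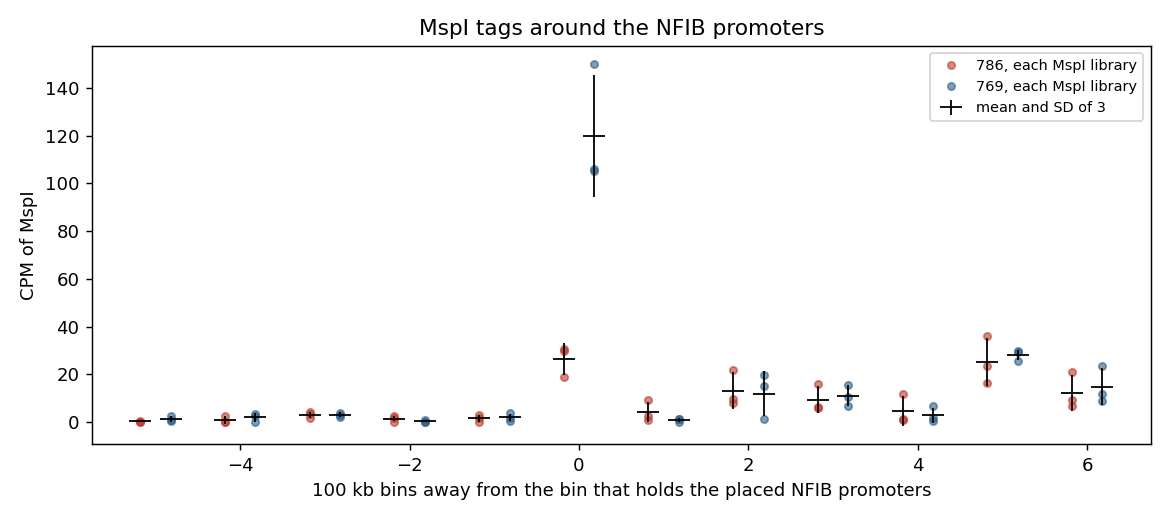
CPM of MspI (y axis) in 100 kb bins around the bin with the placed NFIB promoters (x axis, bins away from it), with a point for each library, 786 left of 769, and bars for the mean and SD of 3. In the middle bin the 786 libraries lie between 19.0 and 30.8 and the 769 libraries between 105 and 150, while the bins beside it are low in both lines.

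The HpaII share over the MspI share compared modification on the arm between the lines and with AA. For 9p as a whole it was 1.03 and 1.11 in the AA replicates and 0.973 in the control of 786, and 1.17, 1.15 and 1.12 in those of 769, where 1 is the genome mean. The means were 1.04 ± 0.0668 in 786 and 1.14 ± 0.0249 in 769 (SD, n = 3 each), a fold of 0.906 with an exact permutation p of 0.1, the smallest possible. With AA over control the fold was 1.10 in 786 and 1.03 in 769, each against 1 control, and 1.07 over both lines, with an exact permutation p of 0.111, the smallest that 9 arrangements allow. Both AA replicates lay above the control of their line. Counting tagged sites in place of tags turned the fold between the lines to 1.05, that of AA in 786 to 0.966 and that of AA over both lines to 0.998, so these directions rest on how many tags a site had.

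By density of CCGG the arm followed a steep gradient. At isolated sites, with 1 to 2 CCGG in 1 kb, the ratio on 9p was 0.433 and 0.436 in the AA replicates and 0.566 in the control of 786, and 0.206, 0.163 and 0.0970 in those of 769. At the densest sites, with 16 or more in 1 kb, it was 2.10, 1.93 and 2.76 in 786 and 2.14, 2.26 and 3.36 in 769. The ratio of isolated to densest sites on 9p was 1.05 times that of control with AA in 786 and 2.89 times in 769, where over all chromosomes it was 1.24 and 3.21 times. Over all chromosomes the ratio at isolated sites was 0.605 and 0.503 in the AA replicates and 0.499 in the control of 786. In 769 it was 0.327, 0.342 and 0.159 in the same order. The order of AA and control in 786 was thus reversed on 9p, where the HpaII library of that control held 958 tags. These are values against 1 control per line and were not tested.

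**Figure D4:**
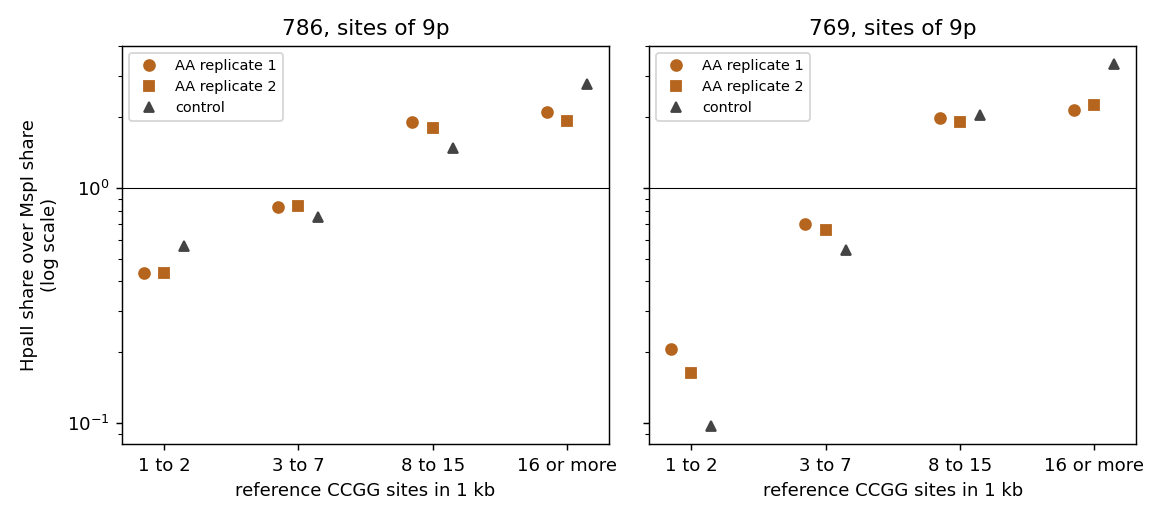
HpaII share over MspI share (y axis, log scale, line at 1) for sites of 9p by the number of reference CCGG sites in 1 kb (x axis), for 786 on the left and 769 on the right, with AA replicates as circles and squares and the control as a triangle. At isolated sites both AA replicates lie below the control in 786 (0.433 and 0.436 against 0.566) and above it in 769 (0.206 and 0.163 against 0.0970). Over all chromosomes, which are not drawn, the AA replicates of 786 were above its control there (0.605 and 0.503 against 0.499).

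Among 200 bins of 100 kb on 9p with enough tags, AA changed HpaII relative to MspI past the threshold in 3 in 769, all higher, of 582 among 15623 over the genome (3.73%, and 3.58% for higher alone). None was called on 9p for AA in 786 (60 over the genome, 0.384%), for AA in both lines (48, 0.307%), for the difference of the lines in their AA contrast (154, 0.986%) or between 786 and 769 (147, 0.941%), all by edgeR. DESeq2 called 1, 4, 6 and 13 bins of 9p for these contrasts in the same order, against 1.18%, 3.54%, 6.58% and 7.71% over the genome. On simulated counts with the spread of these bins the edgeR test missed changes of several fold in 769, so a count of 0 does not show that bins did not differ. The median log2 change with AA was 1.01 on 9p and 0.995 over all bins in 786, and 0.57 on 9p and 0.43 over all bins in 769. These medians moved with the processing. With at least 10 HpaII tags in every HpaII library they were -0.015 on 9p and 0.105 over all bins in 786, and -0.13 and -0.02 in 769. DESeq2 gave 0.128 on 9p and 0.341 over all bins in 786, and without AA replicate 1 of 769 the medians in 769 were 0.08 and 0.12.

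The bin of these with the smallest p held the promoter of IGFBPL1, a secreted relative of the insulin-like growth factor binding proteins, and ran from 38400001 to 38500000. Its HpaII share over MspI share was 1.46 and 0.972 in the AA replicates of 769 and 0.105 in the control, a log2 change of 3.51 ± 0.75 (SE) with an adjusted p of 0.021 by edgeR. In 786 the ratio was 1.02 and 0.879 in the AA replicates and 0.838 in the control (log2 0.25 ± 0.87, edgeR adjusted p = 0.92). The difference of the AA contrast, 786 minus 769, was -3.26 ± 1.17 and did not pass (edgeR adjusted p = 0.21).

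The IGFBPL1 promoter was named after its values were seen. HpaII tags at its 4 CCGG numbered 456 of the bin's 544 and 218 of its 246 in the AA replicates of 769 and 0 in the control, while MspI tags numbered 86, 65 and 209 in the same samples. In 786 it had 193 of the bin's 480 and 89 of its 190 HpaII tags in the AA replicates and 6 in the control, beside 136, 91 and 129 MspI tags. The 6 came from the shallowest library, so they do not show a rise with AA in 786. The HpaII library of the 769 control had tags at fewer sites of 9p than that of either AA replicate of 769. The 41 HpaII tags of the 769 control in the bin all lay at 1 site. In the AA replicates of 769, 77.2% and 52.4% of the bin's HpaII tags also lay at 1 site, with 13 and 6 sites tagged. In those of 786 it was 38.8% and 43.2%, with 10 and 14 sites tagged. The bin passed in 11 of 12 alternatives, and after thinning all libraries to the smallest its log2 change was 10.17 with an edgeR adjusted p of 0.12.

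The other bins called in 769 lay near the centromere, from 46100001 to 46200000 and from 46300001 to 46400000. HpaII tags numbered 29 and 17 in the AA replicates and 0 in the control of 769 in the bin from 46100001, and 31, 18 and 0 in the bin from 46300001 (edgeR adjusted p = 0.042 and 0.043). Of all tags in these bins, 95.7% and 98.6% lay at sites whose counts were not whole, as tags split over several places of alignment give, so they are not independent of each other or of copies elsewhere. With such sites left out neither bin could be tested. Both lost the call with HpaII libraries alone (edgeR adjusted p = 0.085 from 46100001 and 0.086 from 46300001) and after thinning (0.54 and 0.42). The bin from 46300001 also lost it without AA replicate 2 of 769 (0.051).

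**Figure D5:**
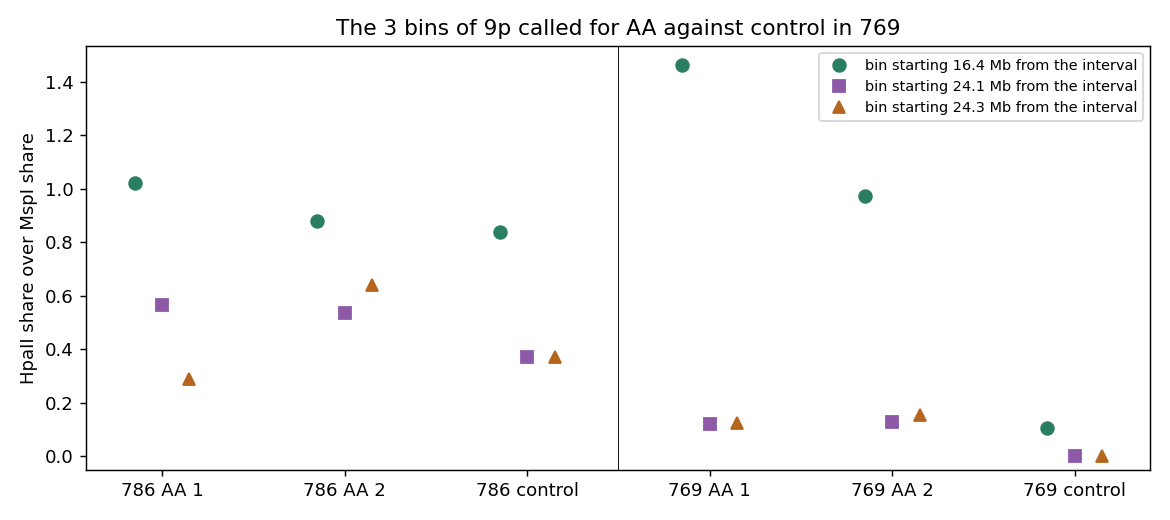
HpaII share over MspI share (y axis) in each DNA sample (x axis, 786 on the left and 769 on the right) for the 3 bins of 9p called for AA in 769, named by the distance of their start from the middle of the CDKN2A and CDKN2B interval. The bin of IGFBPL1, 16.4 Mb away, is at 1.46 and 0.972 in the AA replicates of 769 and 0.105 in its control, and in 786 between 0.838 and 1.02.

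Bins that came nearest without passing are given by value. From 34900001 to 35000000 the ratio was 1.04 and 1.52 in the AA replicates and 8.66 in the control of 786, and 2.50, 2.35 and 6.81 in 769, lower with AA in 4 of 4 samples. Its log2 change with AA was -2.71 ± 0.54 in 786 (edgeR adjusted p = 0.057) and -2.07 ± 0.47 in both lines (0.095). The 786 control had 49 HpaII tags there. From 26800001 to 26900000 the ratio was 2.49 and 4.18 in the AA replicates and 0.292 in the control of 786, and 3.34, 5.44 and 0.468 in 769, higher in 4 of 4 (3.32 ± 0.91 in both lines, edgeR adjusted p = 0.16). From 2800001 to 2900000 HpaII tags numbered 101 and 28 in the AA replicates and 0 in the control of 786, and 101, 207 and 0 in 769 (edgeR adjusted p = 0.17 for AA in both lines).

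The bin from 4900001 to 5000000 holds the 3 placed JAK2 promoters, which drive a kinase of cytokine receptors. Its ratio was 6.02 and 3.23 in the AA replicates and 0.171 in the control of 786, and 2.36, 3.52 and 6.07 in 769, so AA samples lay above the control in 786 and below it in 769. The difference of the AA contrast, 786 minus 769, was 5.82 ± 1.40 with an adjusted p of 0.07 by edgeR, and the 786 control had 1 HpaII tag there beside 303 MspI tags. It passed in 6 of 11 alternatives. From 38300001 to 38400000 HpaII tags numbered 170 and 98 in the AA replicates and 0 in the control of 786, and 110, 100 and 445 in 769. Its edgeR adjusted p was 0.23 for AA in 786 and 0.11 for the difference. From 19400001 to 19500000 they numbered 126, 258 and 0 in 786 and 155, 33 and 285 in 769 (0.13 for the difference).

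Between the lines the bin from 400001 to 500000 had a ratio of 0.398 and 0.399 in the AA replicates and 0 in the control of 786, and 0.0079, 0 and 0 in 769 (log2 5.83 ± 1.60, edgeR adjusted p = 0.12). It holds a KANK1 promoter, a regulator of the actin cytoskeleton, which shares its CCGG with the start of DOCK8-AS2 and was named after its values were seen. MspI tags at that promoter numbered 24, 26 and 42 in the AA replicates and control of 786 and 0 in each sample of 769, and HpaII tags numbered 187, 24 and 0 in 786 and 0 in each sample of 769. MspI tags in the bin as a whole did not differ past the threshold (log2 0.52, edgeR adjusted p = 0.68). The other bins nearest to the threshold between the lines were 43700001 to 43800000 and 200001 to 300000. In the bin from 43700001 the ratio was 6.75 and 2.51 in the AA replicates and 6.84 in the control of 786 and 0 in each sample of 769 (edgeR adjusted p = 0.094), and 74.6% of its tags lay at sites whose counts were not whole. From 200001 it was 0.872, 0.449 and 0 in the AA replicates and control of 786 and 3.91, 2.19 and 3.68 in 769, a log2 change of -2.83 ± 0.82 (edgeR adjusted p = 0.13).

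Promoters were described by their tags with no test. Of the 159 placed, 139 had HpaII tags in both lines, 7 in 786 alone, 8 in 769 alone and 5 in neither. By sample, 134 and 141 had an HpaII tag in the AA replicates and 37 in the control of 786, and 143, 119 and 104 in 769, and the 37 belong to the shallowest library. MspI tags were missing at 5 promoters in 786, of which CDKN2B, CDKN2B-AS1 and LOC124902130 lie in the CDKN2A gap, and at 9 in 769.

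Of 12 genes listed for 9p21 around the tumour suppressor locus, 9 had a placed promoter, with 10 promoters in all and HpaII tags in both lines at 8. The exceptions were CDKN2B and an ELAVL2 promoter, both without tags of either enzyme in 786. TUSC1, a candidate tumour suppressor, had 222 and 80 HpaII tags in the AA replicates and 0 in the control of 786, and 42, 18 and 7 in 769. PLAA, which works in ubiquitin-dependent protein turnover, had 233 and 125 in the AA replicates and 0 in the control of 769, beside 26 MspI tags in that control. An IFT74 promoter that shares a CCGG site with it had 97 HpaII tags in the same control, beside 268 and 171 in the AA replicates. HpaII thus cut beside the PLAA sites in the control too. KLHL9, a substrate adaptor of a ubiquitin ligase, had 151, 74 and 0 in 786 and 3, 109 and 1 in 769. None of the 16 genes of the type I interferon cluster left of CDKN2A had a promoter that could be placed.

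The JAK2 and PD-1 ligand list had 4 promoters of 2 genes placed, all with HpaII tags in both lines. CD274, which encodes PD-L1, had 38 and 25 HpaII tags in the AA replicates and 0 in the control of 786, and 180, 24 and 65 in 769. Transcription and chromatin regulators had 17 promoters of 13 genes placed, with HpaII tags in both lines at 15 and in 769 alone at 2, of DMRT3 and DMRT2. DMRT3, a gonad and neural transcription factor, had 4 and 61 HpaII tags in the AA replicates and 58 in the control of 769, against 0 in each sample of 786, where MspI left 18, 11 and 26 tags. SMARCA2, an ATPase of the SWI/SNF complexes, and KDM4C, a histone demethylase that like TET enzymes uses 2-oxoglutarate, had tags of both enzymes in each AA sample.

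Hypoxia, lipid and transport genes had 8 promoters placed, 7 with HpaII tags in both lines. VLDLR, a lipoprotein receptor, had 138, 77 and 6 HpaII tags in the AA replicates and control of 786 and 80, 55 and 9 in 769. In 786 the 6 came from the shallowest library, so these counts do not show a rise with AA there. GLDC, of the glycine cleavage system, had 36, 0 and 2 HpaII tags in 769 and 0 in each sample of 786, beside 0, 14 and 37 MspI tags in 786. All 9 placed promoters of the 9p13 list of DNA repair and protein quality control had HpaII tags in both lines. FANCG, of the Fanconi anaemia pathway, had 67 and 15 HpaII tags in the AA replicates and 0 in the control of 786, and 1, 0 and 0 in 769, where MspI left 32, 7 and 72 tags.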

How the data were processed

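DNA was cut with HpaII and with MspI, and per the labels' protocols libraries passed through 18 cycles of PCR with no molecular identifier, so intervals and limits cover counting error alone. The deposited files hold the expected count of tags per CCGG site, with totals that differ between libraries, in hg19 per the submitters' processing notes. No aligner is named in the labels or files. Sites with whole counts (tolerance 1e-06), 87.6% over the genome and 67.8% on 9p, were called uniquely placed.

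Counts were summed in bins, rounded, and fitted over chromosomes 1 to 22 and X by edgeR 4.0.16 in R 4.3.3, with a quasi-likelihood test, TMM factors within each enzyme and Benjamini-Hochberg adjustment. MspI bins needed 120 tags (1 Mb, with 100 reference sites) or 60 (100 kb) over 6 libraries, with terms for line and treatment. HpaII bins needed 10 MspI tags in each MspI library and 10 HpaII tags in all, with terms for DNA sample, enzyme, enzyme by line and enzyme by treatment. Each line has 1 control, so the spread comes from the pooled samples and a control is taken to vary as they do. On simulated data the HpaII test missed changes of several fold at the spread of these bins. The ratio is the share of HpaII tags over the share of MspI tags.

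Bins were named as the 5 largest rises and falls called per contrast with samples that did not overlap, then by smallest p to a total of 3, with the bins of the CDKN2A locus. RefSeq promoters were placed by CCGG spacing, from 4 matching sites, or 2 between placed neighbours. Members, lists and bins were chosen with earlier results of these data known. Alternatives included DESeq2 1.42.0. Python 3.11.15 with numpy 2.4.6, pandas 2.3.3, scipy 1.17.1 and matplotlib 3.10.9 served for the rest.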

Additional observations from a re-analysis of the deposited data

How the results depend on the processing

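The stretch without tags in 786 rests on counts of 0 in 6 libraries and on no fitted model, with edges set by the MspI tags of 786. The count of MspI bins of 1 Mb on 9p was 10 or 11 in the 8 alternatives that kept all samples (24.8% to 28.8% over the genome). Counts of bins of 100 kb moved. For MspI bins of 100 kb (1 by edgeR, 1.72% over the genome) DESeq2 called 13 (4.1%), no low count filter 9 (3.13%), no treatment term 2 (1.86%) and the replicate block 3 (2.17%). For AA in 769 (3, 3.73% over the genome) DESeq2 called 17 (14.6%), HpaII libraries alone 7 (7.64%) and the replicate block 6 (6.62%). A filter of 10 HpaII tags per HpaII library (4.47% over the genome), thinning (0.242%) and bins of 1 Mb (3.7%) left 0. For AA in 786 (0, 0.384% over the genome) DESeq2 (1.18%), the stricter HpaII filter (1.57%), thinning (1.03%) and whole counts (0.751%) gave 1 each. No filter (1.31%) and the replicate block (2.27%) gave 2 each and HpaII alone 3 (1.46%). For AA in both lines (0, 0.307% over the genome) DESeq2 called 4 (3.54%), no filter 1 (1.21%) and the replicate block 0 (1.29%). For the difference of the AA contrast (0, 0.986% over the genome) DESeq2 called 6 (6.58%), and no filter (2.11%) and the replicate block (4.37%) 2 each. HpaII alone (4.31%), bins of 1 Mb (3.5%) and whole counts (1.96%) gave 1 each. For 786 against 769 (0, 0.941% over the genome) DESeq2 called 13 (7.71%), no filter 3 (2.17%) and HpaII alone (2.17%) and the replicate block (3.16%) 2 each. Whole counts for HpaII was added after the data were seen.

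Leaving out each DNA sample in turn gave 4 to 12 MspI bins of 1 Mb. The lowest was without the control of 786 (16.4% over the genome) or of 769 (17.2%). For MspI bins of 100 kb it gave 1 to 2 (0.338% to 1.65% over the genome). For HpaII it gave 0 to 1 for AA in both lines (0% to 1.36%) and 0 to 1 for the lines (0.0128% to 2.36%). Counts for AA within a line and for the difference are left out, since such a fit can hold 1 AA sample of a line. Without a line's control no AA count for that line, for both or for the difference could be had. The fold of the MspI share ran from 0.873 to 0.910, that of the ratio between lines from 0.877 to 0.936, and those of AA from 1.05 to 1.08 in both, 1.06 to 1.14 in 786 and 1.02 to 1.04 in 769. Tagged sites in place of tags reversed the fold between lines (1.05), of AA in both (0.998) and of AA in 786 (0.966). Thinning moved AA in 769 to 1.09, and whole counts moved AA in 786 to 1.18 and in 769 to 1.07. Relative MspI tags of the interval ran from 0.730 to 0.933 in 786 and 0.988 to 1.76 in 769 over samples left out. They were 1.08 with whole counts and 0.536 with tagged sites in 786, and 2.88 against 1 Mb on each side in 769. The cause of these moves was not tested. The 26 pairs of a bin and a contrast that were named kept their direction in every alternative in which they were tested.

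AA numbers do not pair the samples as far as the labels say. The AA 1 minus AA 2 differences of the lines had a correlation of -0.026 for MspI and 0.005 for HpaII relative to MspI over 15623 bins.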
